A study of Bos taurus with 2 samples.

Results

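Among 4359 cells kept from 2 single-cell RNA libraries of day 25 bovine chimeric embryos, 272 carried neuronal transcripts and no transcript of DLL3 or HES6. A cell was kept when it had 500 or more detected genes. It was chosen when it held at least 1 UMI (a molecular tag that counts 1 captured RNA molecule) in 4 or more of the 5 genes TUBB3, DCX, ELAVL3, ELAVL4 and STMN2, and 0 UMIs in DLL3 and HES6 together. Replicate 1 held 128 such cells among 1939, or 6.60% (exact binomial 95% interval 5.54 to 7.80). Replicate 2 held 144 among 2420, or 5.95% (5.04 to 6.97), so that the mean share was 6.28% ± 0.460 (SD, n = 2). These intervals cover counting error only, and a count of 0 at this depth does not show that a cell lacks the transcript. The proposed name for the cells was maturing neurons. Against gated cells with a DLL3 or HES6 UMI, these cells were lower for some early factors such as INSM1. No listed cytoskeleton gene was called higher in them. Both classes held unlike cells, so no order between them is drawn. The chosen cells are called DLL3/HES6-negative neurons here, and the gated cells with a DLL3 or HES6 UMI DLL3/HES6-positive neurons.

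Both libraries came from day 25 embryos that had incorporated bovine embryonic stem cells, recovered by flushing; the tissue was digested with papain, and sorted cells were profiled with the 10x Genomics 3′ v3.1 chemistry, which captures RNA in droplets. They carry 1 label and differ only in replicate number, so every comparison is between cell classes inside the same 2 suspensions. The labels do not say from how many embryos the libraries were made, so the p-values measure a spread that may be technical. Which cells the sort selected, and which descended from the stem cells, was not given in the sources used here.

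New neurons are born from dividing neuroepithelial progenitors that express SOX2 and HES1 and receive Notch signals. Cells leaving the cycle pass through a short phase in which INSM1, GADD45G, the Notch ligand DLL1, the divergent ligand DLL3 and the HES1 antagonist HES6 are made. Tubulins, doublecortin (DCX), stathmins (STMN2) and the ELAVL RNA-binding proteins then come up with axon growth, followed by adhesion molecules, channels and transmitter genes.

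The members had a median of 6749.5 UMIs per cell in replicate 1 (range 1453 to 13512) and 7739 in replicate 2 (1687 to 14255), with 2957.5 and 3246 detected genes. Their median share of ribosomal protein UMIs was 6.10% and 11%, between the 11.2% and 12.9% of DLL3/HES6-positive neurons and the 4.01% and 5.23% of all other kept cells. DLL3/HES6-positive neurons numbered 120 and 169 and were deeper (medians 8629 and 8549 UMIs). SOX2 progenitors (a SOX2 UMI and at most 1 of the 5 gate genes) numbered 601 and 795 at 5136 and 5910 UMIs. Collagen-rich cells had 3 or more UMIs in COL1A1, COL1A2 and COL3A1 together. They also had no SOX2 UMI and at most 1 of the 5 gate genes. They serve as a comparison class and numbered 52 and 107 at 7431.5 and 9826 UMIs. The libraries shared 6 cell barcodes, 1 of them in a member.

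The gate genes were high in the members and low in collagen-rich cells by construction, so their levels are a description only. DCX, a microtubule-associated protein of migrating neurons, stood at 428 and 392 CPM (UMIs of the gene per 1000000 UMIs of the summed class) in the members of replicates 1 and 2, at 507 and 468 in DLL3/HES6-positive neurons, and at 11 and 8.21 in collagen-rich cells. STMN2, a growth-cone stathmin, stood at 1587 and 2353, against 2749 and 3037 and against 24.2 and 23.6. Both neuronal classes were far above the collagen-rich cells, a gap that the class rules set. For both genes the members were below the DLL3/HES6-positive class in both replicates. Cells 1 gate gene short, with 3 of 5 and no DLL3 or HES6 UMI, numbered 147 and 153 and had 283 and 332 CPM of SOX2. Members with exactly 4 gate genes (76 and 72 cells) had 209 and 204 CPM of SOX2, and members with all 5 (52 and 72 cells) had 64.9 and 61.2. Just past the other edge, gated cells with a single DLL3 or HES6 UMI (55 and 72 cells) had 118 and 55.7 CPM of SOX2. Their INSM1 was at 89.8 and 115, against 27.4 and 19.8 in members with 4 gate genes and 54.9 and 62.9 with 5. Gated cells with 2 or more such UMIs (65 and 97 cells) had SOX2 at 179 and 216 and INSM1 at 238 and 219. STMN4 was at 322 and 271 in them, 158 and 157 in members with 4 gate genes and 417 and 646 with 5.

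NRXN3 and LRRTM4, synaptic adhesion genes proposed as markers, were not in the gate. NRXN3, a presynaptic neurexin, was at 1494 and 1071 CPM in the members, at 978 and 520 in DLL3/HES6-positive neurons, and at 76.4 and 95 in SOX2 progenitors. It was found in 50.8% and 50.7% of members, and in 7.69% and 18.7% of collagen-rich cells; with each cell thinned to 2000 UMIs (5 and 3 members were too shallow) the members' shares were 41.5% and 38.3%. LRRTM4, a postsynaptic neurexin ligand, was at 540 and 77.8 CPM in the members, held by 41 and 20 cells, so the level was far from equal between replicates. Neither gene was called between the members and DLL3/HES6-positive neurons: NRXN3 differed by 0.71 ± 0.27 (log2, SE; adjusted p = 0.276) and LRRTM4 by 1.28 ± 1.07 (adjusted p = 0.648; edgeR's quasi-likelihood test with Benjamini-Hochberg adjustment). Both NRXN3 values of the members lay above both of that class, and a test on 2 replicates does not show equal levels. That class was mixed for NRXN3. Gated cells with 1 DLL3 or HES6 UMI had 1833 and 853 CPM, and those with 2 or more had 345 and 328. The members were not tested against these parts. With replicate 2 alone, LRRTM4 was lower in the members (-0.76).

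SOX2, a progenitor factor, was still present. It was at 143 and 127 CPM and in 39.1% and 38.9% of members (21.1% and 17.7% after thinning), against 425 and 391 CPM in the SOX2 progenitors, which were chosen on it. DLL3/HES6-positive neurons had 153 and 157 CPM, a level near the members'.

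**Figure D1:**
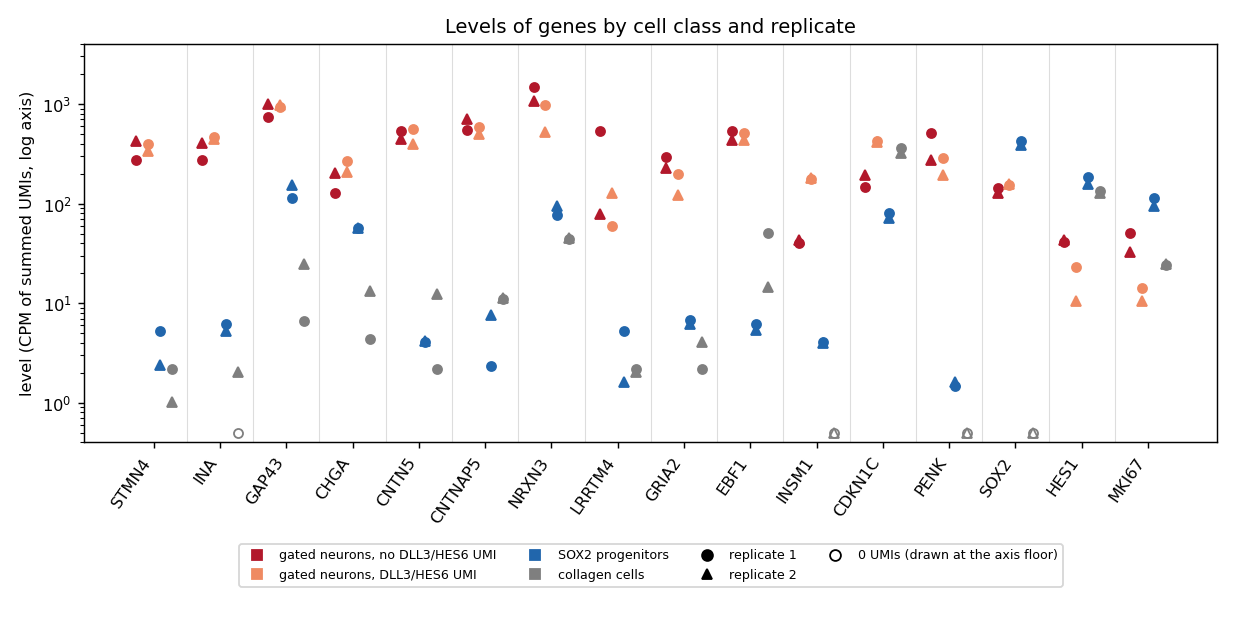
Level of 16 genes (CPM, log axis) in 4 cell classes, circles for replicate 1 and triangles for replicate 2, with open symbols at the lower edge of the axis for 0 UMIs. STMN4, INA, CNTN5 and CNTNAP5 sit at similar heights in both gated classes and far lower in progenitors and collagen-rich cells, whereas INSM1 and CDKN1C sit lower in the DLL3/HES6-negative neurons than in the DLL3/HES6-positive ones in both replicates.

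Against all other kept cells together, the members had a broad excess of neuronal genes and a deficit of genes of blood, placenta, mesenchyme and dividing cells. The fit of summed UMIs called 984 of 13353 genes higher (7.37%) and 1027 lower (7.69%), a call being an adjusted p under 0.05 with a log2 fold change of 1 or more. The gate read UMIs of these same cells, and genes that travel with the gate had to differ. The calls are therefore a description, and nothing is read from their number. Of the 2011 called genes, 1979 differed in the same direction in each replicate.

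Axon and cytoskeleton genes were 23 higher of 29 tested, with a median log2 fold change of 1.53 beside -0.02 over all genes tested. STMN4, a neural stathmin, was at 276 and 420 CPM in the members and at 51.5 and 42.1 in other cells (3.01 ± 0.13, log2, SE). With replicates 1 and 2 each taken alone its log2 difference was 2.52 and 3.43, a wider gap than that SE. INA, the neuronal intermediate filament α-internexin, was at 274 and 403 against 54.9 and 51.4, and neurofilament light chain NEFL at 68.5 and 165 against 17.7 and 23.6. GAP43, a growth-cone protein, was at 737 and 993 against 184 and 216 and was held by 72.7% and 71.5% of members, against 3.85% and 6.54% of collagen-rich cells. For each of these genes both replicates of the members lay above both replicates of the other cells.

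Of 38 synaptic adhesion genes 31 were higher and 1 lower (median 1.71). CNTN5, a contactin, stood at 538 and 442 CPM against 77.3 and 64.6, a log2 difference of 2.90. Its relative CNTNAP5 stood at 552 and 711 against 104 and 97.9 (2.75). In replicate 2 a single cell gave 36.0% of the members' CNTN5 UMIs. The 1 lower member was SLITRK6, at 2.28 and 1.83 against 8.46 and 13.7.

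Vesicle genes were 25 higher of 31 (median 1.69) and ion channel genes 28 higher of 45 (1.55). Secretogranin SCG2, a dense-core vesicle protein, was at 122 and 103 CPM against 18.1 and 15.3. The vesicle priming factor UNC13A was at 54.8 and 30.2 CPM and 2.69 higher on the log2 scale. GRIA2, an AMPA glutamate receptor subunit, was at 295 and 227 against 46.9 and 27.9 (2.95), and the calcium channel subunit CACNA2D3 at 408 and 222 against 43.4 and 38.2. Transcripts of both release and receptor machinery were thus present in these day 25 cells at the RNA level.

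Axon guidance genes were more mixed, with 12 higher and 2 lower of 39 (median 0.57). ROBO1, a receptor for SLIT ligands, was at 2802 and 2483 CPM against 737 and 516 (2.21), and the commissural receptor ROBO3 at 26.3 and 16.5 against 3.60 and 3.49 (2.66). The secreted SEMA3E was 1 of the lower genes (-2.36). Neuronal RNA-binding proteins were 11 higher of 24 (median 0.85), led by the splicing factor RBFOX1 at 1134 and 1080 CPM against 267 and 140.

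Neurogenic transcription factors were 17 higher of 27 (median 1.61). EBF1 was at 530 and 439 CPM against 83.0 and 69.0, a log2 difference of 2.78. ONECUT1 was at 120 and 82.4 against 12.6 and 13.9 (3.01), and ONECUT2 at 188 and 204 against 29.7 in each replicate (2.84). Among neurotrophin and GDNF receptors 7 of 15 were higher, including the neurotrophin-3 receptor NTRK3 at 54.8 and 77.8 against 14.8 and 10.6. ACTL6B, a subunit of the neuronal chromatin remodelling complex, was at 45.7 and 64.1 against 11 and 9.29 (2.57).

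Some of the highest fold changes came from a few cells. PENK, the enkephalin precursor, had the highest log2 fold change among the genes named (3.84 ± 0.13), at 506 and 273 CPM against 31.0 and 25.3. Yet 9 and 7 members held all of it, and 1 cell gave 35.0% and 34.9% of the UMIs. The PENK call against all other cells was lost with all 5 gate genes. The glycine transporter SLC6A5 was held by 4 and 7 members (25.1 and 32.0 CPM), and the homeobox gene LHX9 by 3 in each replicate (29.7 and 24.7 CPM). HECW1, a ubiquitin ligase, was spread more widely: 68 and 63 members held it, at 315 and 208 CPM against 31.2 and 24.7.

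Notch pathway genes were 7 lower and 1 higher of 22 (median -0.53; -0.51 with genes at 0 UMIs set at their bound). The receptor NOTCH2 was at 19.4 and 16.5 CPM against 71.3 and 69.2, and HES1, a repressor induced by Notch, at 41.1 and 43.0 against 129 and 117. Of 30 neural progenitor genes 8 were lower, among them the R-spondin RSPO2 (3.43 and 0.916 against 27.7 and 33.4) and the glutamate transporter SLC1A3 (12.6 and 23.8 against 62.7 and 59.3). PAX6 was not called, at 136 and 97.1 against 129 and 106. Of 44 cell cycle genes 16 were lower (median -0.78), such as the kinesin KIF18B at 4.57 and 3.66 against 22.5 and 20.3. The calls of NOTCH2, HES1, RSPO2, SLC1A3 and KIF18B were lost with 3 or more gate genes in place of 4. The cyclin-dependent kinase inhibitor CDKN2D was higher, at 22.8 and 37.5 against 8.17 and 7.06.

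Of the genes of other tissues some were low in the members and others had 0 UMIs. The embryonic globin HBZ was at 336 and 353 CPM in the members against 6284 and 10509 in other cells, and 111 and 123 members held a UMI of it. The 9 erythroid markers summed to 544 and 558 CPM in the members and to 464 and 428 in collagen-rich cells, which should lack them too, with HBA, ALAS2 and SLC4A1 at 0 in the members. The 11 mesenchyme markers summed to 141 and 353 CPM in the members and to 1470 and 2365 in all other kept cells. Collagen-rich cells, a part of the latter, had 27716 and 29462. That sum was high by construction, since COL1A1, COL1A2 and COL3A1 are among the markers and chose these cells. The cardiac light chain MYL4 had 0 UMIs in the members and 27.1 and 29.9 CPM elsewhere, at least 18.9-fold lower with 3 counts over the group as the floor. The MYL4 call was lost with DESeq2 and with a ribosomal share under 10%. Each of the 9 trophoblast markers tested was called lower. PAG2, a pregnancy-associated glycoprotein of a family whose reads may be split between near-identical copies, was at 3.43 and 1.83 CPM against 149 and 43.2. The PAG2 call was lost with no replicate block. The part of free RNA in these low levels was not tested.

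**Figure D2:**
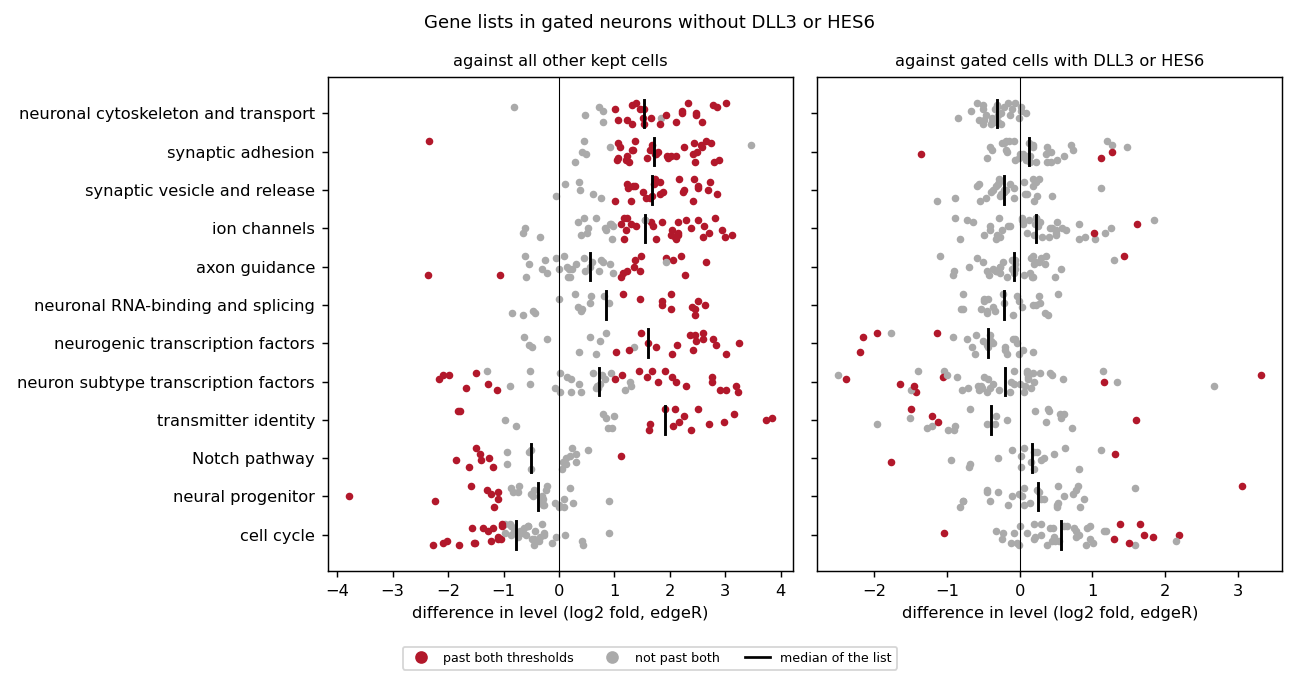
Log2 fold change of each tested gene (points) in 12 gene lists, for the DLL3/HES6-negative neurons against all other kept cells (left) and against DLL3/HES6-positive neurons (right), red where both call thresholds were passed and with a black bar at the list median. In the left panel the median is 1.53 for the cytoskeleton list, 1.71 for adhesion and -0.78 for the cell cycle, and in the right panel -0.31, 0.13 and 0.58.

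Set against DLL3/HES6-positive neurons, the members differed in few genes. Of 12564 genes, 114 were higher (0.907%) and 60 lower (0.478%), with all 174 in the same direction in each replicate. The split was made on DLL3 and HES6 in the same cells, so these calls too are a description. A few factors of early neurogenesis were lower in the members, and none of the listed cytoskeleton, vesicle or RNA-binding genes was called in either direction by edgeR.

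Neurogenic transcription factors held 4 lower genes of 26 (median -0.44). INSM1, a zinc-finger factor of newly born neurons, was at 40.0 and 43.0 CPM in the members and at 175 and 181 in DLL3/HES6-positive neurons, a log2 difference of -2.19 ± 0.17. Among cells with a ribosomal share under 10% its difference was -0.83 and no longer called. The stress-inducible GADD45G was at 20.6 and 24.7 against 83.5 and 104 (-2.15). Both replicates of the members lay below both replicates of the other class for INSM1 and GADD45G. The Notch ligand DLL1 was lower by 1.77 on the log2 scale but 0.21 higher among cells with a ribosomal share under 10%. CDKN1C, a cyclin-dependent kinase inhibitor expressed as cells leave the cycle, was at 146 and 195 CPM against 425 and 419 (-1.39), a call lost with a ribosomal share under 10%.

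In the cytoskeleton list 3 of 29 genes had a log2 fold change above 0 (median -0.31), and edgeR's quasi-likelihood test called 0 of them; at an unadjusted p under 0.05, 15 were lower and 0 higher, and DESeq2 called 0. STMN4 stood at 276 and 420 CPM in the members against 396 and 340, groups that overlapped, and INA at 274 and 403 against 462 and 444, with both members' values lower. The vesicle list had 0 calls of 32 by edgeR (median -0.21), 7 lower and 0 higher at an unadjusted p under 0.05, and 0 by DESeq2. The RNA-binding list had 0 calls of 24 by edgeR (-0.22), 3 higher and 6 lower at an unadjusted p under 0.05, and 0 by DESeq2. With both classes restricted to cells holding all 5 gate genes, the medians of the cytoskeleton and vesicle lists were -0.08 and 0.20. The adhesion list had 2 higher genes and 1 lower of 38 (median 0.13). DSCAM, an adhesion molecule of dendrites and axons, was at 636 and 526 CPM against 260 and 237, a log2 difference of 1.12. OPCML, an immunoglobulin-domain adhesion protein, was at 137 and 176 against 74.4 and 50.5 (1.28), and the axonal contactin CNTN2 was lower (-1.36). Ion channel genes held 2 higher of 45 (median 0.23), the NMDA receptor subunit GRIN3A (1.61) and the GABA receptor subunit GABRG3 (1.02). The calls of OPCML, CNTN2 and GRIN3A were lost with a ribosomal share under 10%. Those of CNTN2, GRIN3A and GABRG3 were lost with thinning to 2000 UMIs and with no replicate block. CNTN2 and GRIN3A also lost theirs with all 5 gate genes, without the 5% of cells with the most UMIs and without division-gene cells. The GRIN3A call was lost too with 3 or more gate genes and with 1000 or more detected genes.

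Of 30 neural progenitor genes 1 was higher in the members, SLC1A3. It was at 12.6 and 23.8 CPM in the members, 1.01 and 2.81 in DLL3/HES6-positive neurons, and 79.3 and 55.4 in SOX2 progenitors. FREM2, an extracellular matrix protein, had the highest log2 fold change of the genes named by size (2.89 ± 0.41), at 33.1 and 44.9 against 9.05 and 2.11, with 88.9 and 98.0 in progenitors. SLIT2, the ligand of ROBO receptors, was at 344 and 288 against 137 and 86.3 and reached 621 and 690 in progenitors. FOXP2, a forkhead factor, was at 280 and 236, 85.5 and 125, and 802 and 872 in the 3 classes. HES1 was at 41.1 and 43.0 against 23.1 and 10.5 (1.32), but its difference was -0.64 among cells with a ribosomal share under 10%. The calls of SLC1A3, FREM2 and SLIT2 were lost in that setting too, those of SLC1A3 and FREM2 also with all 5 gate genes, and that of SLC1A3 also with thinning, with 3 or more gate genes and without division-gene cells.

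Cell cycle genes held 7 higher and 1 lower of 44 (median 0.58). MKI67, the proliferation antigen, was at 50.3 and 33.0 CPM in the members, 14.1 and 10.5 in DLL3/HES6-positive neurons, and 113 and 93.4 in progenitors. TOP2A, which untangles DNA before mitosis, was at 203 and 130 against 45.2 and 59.6, and 1 cell gave 28.7% and 25.4% of the members' UMIs. CCND1 was the lower gene, at 184 and 235 against 486 and 333. MKI67 was no longer called with thinning, with a ribosomal share under 10% or with all 5 gate genes. The counts of calls also depended on a minority of cells, described below.

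In the transmitter list SLC6A5 was the 1 higher gene of 24, and TH, DBH and SLC5A7 were lower. TH, the rate-limiting enzyme of catecholamine synthesis, was at 25.1 and 28.4 CPM against 85.5 and 59.6 (-1.50), with no overlap between classes. DBH, which makes noradrenaline, differed by -1.21 and the choline transporter SLC5A7 by -1.12 on the log2 scale. The calls of all 4 were lost with thinning to 2000 UMIs and without division-gene cells, and 1 cell gave 59.1% and 68.6% of the members' SLC6A5 UMIs. EYA2, a transcriptional coactivator, was at 51.4 and 70.5 against 197 and 168 (-1.64). CLDN5, a tight-junction claudin, gave the lowest value among genes named by size (4.57 and 2.75 against 25.1 and 41.4, log2 -3.33), and the selenoprotein SELENOM was at 16.0 and 26.6 against 143 and 98.9 (-2.54); the former call was lost with thinning and the latter with a ribosomal share under 10%. Depth and ribosomal share also differed between these classes, and their part in the differences was not tested beyond the restricted fits given in the closing section.

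Compared with SOX2 progenitors, 1395 of 12563 genes were higher in the members (11.1%) and 986 lower (7.85%); the progenitor class was limited to at most 1 gate gene, so this too is a description. The glutamate transporter gene SLC17A6 was at 25.1 and 12.8 CPM in the members and had 0 UMIs in progenitors, at least 51.4-fold higher with 3 counts over the group as the floor. Only 8 and 5 members held SLC17A6, and 1 cell gave 31.8% and 64.3% of the UMIs. NRSN1, a neurite membrane protein, was at 20.6 and 20.1 against 0 UMIs, at least 57.1-fold higher. CNTNAP5 (552 and 711 against 2.33 and 7.60) and CNTN5 (538 and 442 against 4.08 and 4.20) differed by 7.06 and 7.04 on the log2 scale. EBF1 was at 6.12 and 5.40 CPM in progenitors, a log2 difference of 6.56 ± 0.15. The neuronal lists were 24 higher of 29 for the cytoskeleton, 33 of 38 for adhesion, 26 of 32 for vesicles and 31 of 45 for channels. In the Notch list 8 of 20 and in the cell cycle list 19 of 44 were lower (median -0.92 for the latter). RSPO2 was among the lowest, at 3.43 and 0.916 CPM against 39.4 and 46.4.

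The members were not of 1 kind. Variation was described with each cell thinned to 2000 UMIs, by the Fano factor (variance over mean), whose median was 1.17 and 1.15 over 4503 and 4358 genes. PENK (31.5 and 23.3) and CRABP1, a retinoic acid binding protein (27.7 and 81.4), led in both replicates. ROBO1 (19.8 and 15.8), CNTN5 and NRXN3 were also among the top 25 in each. The groups that follow were chosen after these values were seen and are given with no test.

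GAD1, GAD2 or SLC32A1, genes of GABA synthesis and vesicular loading, marked 19 and 27 members. Their median ribosomal share was 1.598% and 8.93% against 6.91% and 11.9% in the remaining members. Its part in the values that follow was not tested. NRXN3 was at 4672 and 4583 CPM in the GABA-gene cells and at 904 and 338 in the remaining members. The extracellular protein RELN was at 1305 and 858 against 165 and 90.8. DLX6, a homeobox gene known from GABA neurons of the forebrain, was at 117 and 143 against 9.48 and 9.96. DSCAM was at 2070 and 1510 against 370 and 320. DBH and HAND2, a factor of autonomic neurons, had 0 UMIs in them. LRRTM4 was at 2034 and 154 against 263 and 62.0, unequal between replicates inside the group as well. SLC17A6, a gene of glutamate neurons, was held by 8 and 5 members, 1 and 0 of which also held a GABA gene.

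A further group carried division transcripts. Summed over MKI67, TOP2A, CENPF, CENPE, ASPM, NUSAP1, KIF11, CDK1 and CCNB1, 28 and 25 members (21.9% and 17.4%) had 5 or more UMIs. The share was 5.00% and 8.88% in DLL3/HES6-positive neurons, 37.4% and 38.6% in SOX2 progenitors, and 15.4% and 17.8% in collagen-rich cells, a class that can divide too. After thinning to 2000 UMIs, at least 1 UMI of these genes was found in 30.9% and 29.1% of members, 22.7% and 17.2% of DLL3/HES6-positive neurons, 62.2% and 58.5% of progenitors and 26.5% and 28.6% of collagen-rich cells. The members thus lay between the other neuronal class and the progenitors, and near the collagen-rich cells. The 10 members with most of these UMIs held 67.3% and 60.4% of them, and 64 and 68 members held none. In the members with 5 or more, INA was at 32.1 and 66.4 CPM against 340 and 470 in the rest, and GAP43 at 155 and 216 against 895 and 1147. SOX2 was at 219 and 205 against 122 and 112, and the intermediate filament VIM at 1894 and 2385 against 950 and 1474. DBH, TH and PENK had 0 UMIs in them. Of other progenitor genes, PAX6 did not follow (128 and 88.6 against 138 and 98.7), nor did HES5 (37.5 and 38.7 against 58.1 and 37.3). SLC1A3 did, at 32.1 and 71.9 against 7.26 and 14.3. The division-gene members had a median ribosomal share of 13.6% and 14.0% against 5.35% and 10.5% in the rest. Its part in these values was not tested.

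**Figure D3:**
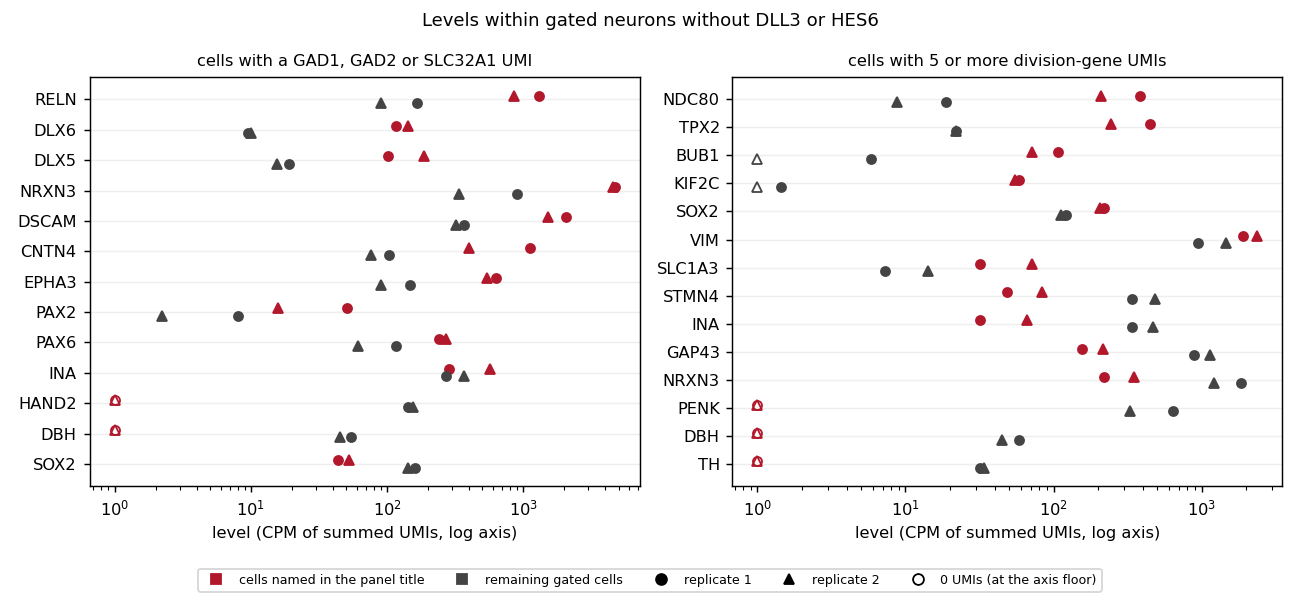
Level (CPM, log axis) of selected genes inside the DLL3/HES6-negative neurons, comparing cells with a GAD1, GAD2 or SLC32A1 UMI (left) and cells with 5 or more division-gene UMIs (right) with the remaining members, 1 symbol per replicate. NRXN3 is at 4672 and 4583 in the GABA-gene cells, above the remaining members, and INA at 32.1 and 66.4 in the division-gene cells, below them.

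Leaving out cells with 5 or more division-gene UMIs from every class, a setting added after seeing the data, edgeR called 0 of 42 cell cycle genes between the gated classes; at an unadjusted p under 0.05, 4 were higher and 1 lower. With all 5 gate genes required, 1 of 44 was higher (median -0.14). After thinning to 2000 UMIs 2 were higher and 1 lower of 41. Among cells with a ribosomal share under 10%, the 1 call of 44 was a lower gene. Of the 43 genes named in the comparison of the gated classes and called, 4 were called in every setting that tested them, among them GADD45G (log2 -2.29 to -1.39 over the settings), EYA2 (-2.02 to -1.30) and DSCAM (1.02 to 1.37).

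**Figure D4:**
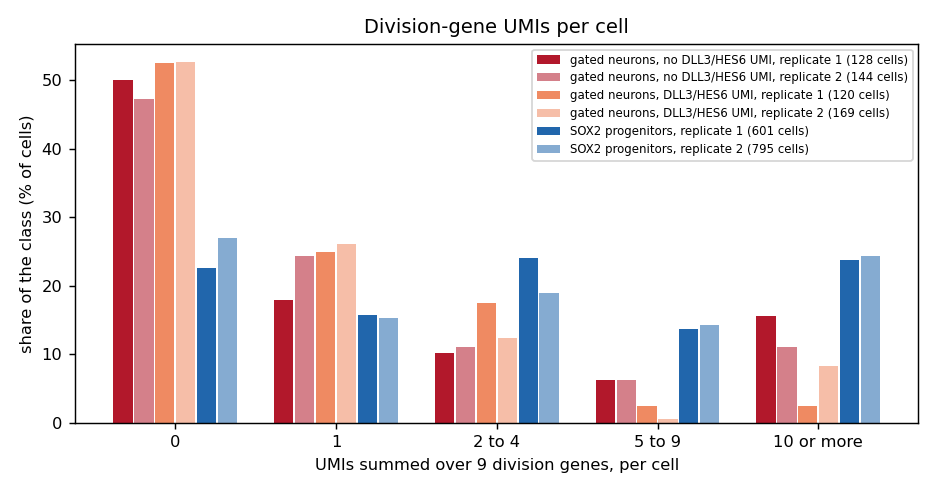
Share of each class (%) by the number of UMIs a cell held over the 9 division genes, for DLL3/HES6-negative neurons, DLL3/HES6-positive neurons and SOX2 progenitors, with 1 bar per replicate. Cells with 5 or more UMIs made up 21.9% and 17.4% of the first class, 5.00% and 8.88% of the second, and 37.4% and 38.6% of the progenitors.

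CRABP1 marked members unevenly: 34 and 26 cells held 20 or more UMIs of it. Their median ribosomal share was 11.4% and 14.0% against 3.79% and 10.3% in the rest. Median depth was 5400 and 10071.5 UMIs against 7083.5 and 7089. The part of either in the values that follow was not tested. NRN1, a neurite-promoting membrane protein, was at 208 and 199 CPM in these cells against 30.3 and 39.7 in the rest. ONECUT1 was at 236 and 211 against 81.9 and 46.8, and the neural crest and ectoderm factor TFAP2B at 240 and 300 against 71.3 and 95.9. Neurofilament NEFM was at 319 and 1162 against 135 and 113. NRXN3 went opposite ways in the replicates, at 217 and 2201 against 1913 and 759. PENK was at 4.62 and 4.23 CPM there, so the PENK-rich cells were other members.

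Other identity genes were shared more widely. GATA3, a zinc-finger factor, was at 619 and 576 CPM and in 74.2% and 75.7% of members, against 25.0% and 25.2% of collagen-rich cells. Its relative GATA2 was at 77.7 and 65.9 CPM against 23.3 and 21.6 in all other cells. MEIS2, a homeobox gene of broad use, was found in 85.9% and 76.4% of members against 50.0% and 49.5% of collagen-rich cells. NEUROG2 and NEUROD1, factors of many glutamate neurons, were rare, with a UMI in 2 and 4 members for the former and in 2 and 6 for the latter.

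HOX genes, which mark hindbrain and trunk position, allowed a last division of the members: 26 and 41 cells with 2 or more HOX UMIs against 65 and 65 with 0. HOXB2 was held by 33 and 43 members. Of 7100 genes 136 were higher in the HOX-positive arm (1.92%) and 182 lower (2.56%). Adhesion genes were 7 lower of 33 and channel genes 8 lower of 36, such as the adhesion gene CNTN5 at 188 and 115 CPM against 838 and 829. ROBO1 was at 1793 and 759 against 3760 and 4244. NEFL was at 103 and 368 against 50.8 and 59.9, and the cytoskeleton list was 10 higher of 27. All calls of this comparison together numbered 16 without the replicate block, 81 after thinning to 2000 UMIs and 1 without division-gene cells. The arms also differed in depth and ribosomal share. The 26 and 41 HOX-positive cells held 213060 and 375476 UMIs in sum, and the 65 and 65 HOX-negative cells 393649 and 434222. On average per cell, the HOX-positive arm was therefore the deeper in both replicates. Cells with a ribosomal share under 10% numbered 16 and 13 in the former and 45 and 37 in the latter. The part of depth and ribosomal share was not tested beyond the thinning. PENK was the 1 named gene of 49 called in every setting that tested it, at 1375 and 791 CPM against 17.8 and 2.30. Only 3 and 6 HOX-positive cells held it, and 1 cell gave 52.9% and 35.0% of the UMIs in that arm.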

How the data were processed

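The table deposited by the authors gives whole-number UMI counts for each cell, not normalized. Per the submitters' processing notes, Cell Ranger, R 4.1.2, Seurat 4.3.0 and the bosTau9 build were used; which Cell Ranger version and annotation served was not given in the sources used here. Deposited cells numbered 1973 and 2464, with 201 to 3999 detected genes each. No doublet caller was run; leaving out the 5% of cells with the most UMIs was an alternative. The libraries were counted as 2 samples because the labels number them as replicates; their summed counts per gene differed beyond counting noise (chi-square 14.7 for each degree of freedom), which, since UMIs cluster in cells, says nothing of separate embryos.

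UMI counts were summed per replicate and class. The sums were tested with edgeR 4.0.16 (quasi-likelihood, TMM scaling, filterByExpr) in R 4.3.3, with the replicate as a block because classes of one number come from one suspension. A fit over 4 classes (DLL3/HES6-negative, DLL3/HES6-positive, SOX2 progenitors, remaining cells) gave the comparisons between classes; separate fits gave those against all other cells and between HOX arms, each with 1 residual degree of freedom, so that their spread was pooled over genes. The SE beside a log2 fold change was derived from the test statistic of the fit. It rests in part or in whole on spread pooled over genes and is not the spread between replicates of that gene. P-values were adjusted by Benjamini-Hochberg over all genes tested, and called genes passed 0.05 with an absolute log2 fold change of at least 1. The gate genes, DLL3, HES6 and, where they defined a class, SOX2 and the HOX genes are not reported as tests. CPM is UMIs of a gene per 1000000 UMIs of the summed class. Levels inside the members are CPM of the summed cells. The fitting code was tested on simulated data. DESeq2 1.42.0, other scaling and filters, thinning to 2000 UMIs, other gates and leaving out a replicate were alternatives.

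Genes were named by rule: among called genes at 20 CPM or more in the higher class and with the same direction in each replicate, those with the largest log2 fold changes (12 highest and 10 lowest against other cells, 10 and 10 against the other classes, 8 and 8 between HOX arms), up to 4 called genes of each list, NRXN3 and LRRTM4. Subtype genes with a UMI in 10% or more of members in both replicates were also named. CHGA, GAP43, SOX2, PAX6, HBZ, TOP2A, CCND1, NEUROG2, NEUROD1 and the genes of the groups inside the members were named after their values were seen. The members, gene lists and marker lists were chosen with earlier results of these data known. Gene symbols are those of the authors' table; 17337 of 17846 were found in a RefSeq table of ARS-UCD2.0, used for names only. Some genes are not reported here.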

Additional observations from a re-analysis of the deposited data

How the results depend on the processing

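Against all other cells the 2011 calls became 1110 with DESeq2, 1070 with 3 or more gate genes and 4225 with no fold minimum; with no replicate block they were 1831. Higher calls were 48.9% of all, and 62.6% with DESeq2. Against DLL3/HES6-positive neurons the 174 calls became 82 with no replicate block, 45 after thinning, 46 with a ribosomal share under 10%, 87 with all 5 gate genes, 375 with 3 or more, 80 without division-gene cells, 279 with no low count filter and 471 with no fold minimum. There 65.5% were higher, 77.3% with no scaling factor and 47.3% with no fold minimum. Against SOX2 progenitors the 2381 calls became 1342 with 3 or more gate genes and 5000 with no fold minimum, and 2307 with no replicate block; 58.6% were higher, 72.7% with 3 or more gate genes and 43.0% with no scaling factor. Between HOX arms the 318 calls became 107 with 1 or more HOX UMIs, 32 with DESeq2, 81 after thinning, 16 with no replicate block, 1 without division-gene cells, 164 without the 5% of cells with the most UMIs and 597 with no fold minimum; 42.8% were higher, 22.3% with no scaling factor.

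The mean share of 6.28% became 6.81% with 1000 or more detected genes, 13.2% with 3 or more gate genes, 2.83% with all 5 and 4.21% with the gate applied after thinning; leaving out each replicate gave 5.95% to 6.60%. The cause was not tested for these changes, beyond the fewer cells that stricter gates leave and the lower depth of thinned cells. Against DLL3/HES6-positive neurons, differences that reversed were CCNB1 (-0.19), DLL1 (0.21), HES1 (-0.64) and SHH (-0.20) with a ribosomal share under 10%, CHST9 (-2.08) with all 5 gate genes and LRRTM4 (-0.76) without replicate 1 (without replicate 2 it was 3.11); the cause was not tested. Calls of named genes held in every setting that tested them for 54 of 79 genes against all other cells, 4 of 43 against DLL3/HES6-positive neurons, 66 of 82 against progenitors and 1 of 49 between HOX arms. The block ended 5, 19, 1 and 38 of these calls when it was left out. Fits without a replicate have no residual degrees of freedom and gave values with no test. The HOX arms were not run with a ribosomal share under 10%, since 1 arm had 13 cells, under the minimum of 20.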

Other observations

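GFP has a row in the count table, and the labels do not say what carried it. It was at 1547 and 2169 CPM in the DLL3/HES6-negative neurons and in 90.6% and 90.3% of them. DLL3/HES6-positive neurons had 2488 and 2333 CPM, SOX2 progenitors 1986 and 2086, and collagen-rich cells 295 and 189 (46.2% and 51.4% of cells). In thinned cells the members' shares with a GFP UMI were 77.2% and 78.7%, against 16.3% and 32.7% of collagen-rich cells.

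CRABP1 was at 2533 and 5902 CPM in the DLL3/HES6-negative neurons and at 6280 and 13836 in the DLL3/HES6-positive ones. Both classes were higher in replicate 2, as were all other cells, at 1047 and 1827.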
